A study of Mus musculus with 32 samples.

Results

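RNA levels of the replication-dependent histone genes were compared between WT and Eed-/- mouse embryonic stem cells (mESCs). These genes were taken as the symbols of the mouse histone clusters, that is, Hist1 to Hist4 followed by the name of a histone gene, and 67 of the 24028 symbols in the RNA-seq data belonged to them. By histone there were 6 genes of the linker histone H1, 18 of H2A, 18 of H2B, 12 of H3 and 13 of H4. By position, 53 genes lay in cluster 1 on chromosome 13, 10 in cluster 2 on chromosome 3, 3 in cluster 3 on chromosome 11, and the gene Hist4h4 stood alone on chromosome 6. The symbols include the testis genes Hist1h1t, Hist1h2aa and Hist1h2ba, so not every one of them is a gene of dividing body cells. They also include Hist3h2bb-ps and Hist2h3c2, which the annotation lists as pseudogenes.

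The study asked how Polycomb acts at DNA methylation valleys (DMVs), which are large regions without DNA methylation around many developmental genes. The RNA-seq part held 1 library of WT mESCs and 1 of mESCs with the genotype Eed-/-, both grown on gelatinized plates in serum with leukemia inhibitory factor (LIF), with no treatment. EED is a core subunit of the Polycomb repressive complex 2 (PRC2), which methylates H3K27. Both libraries carry the strain name TT2, whereas the Eed-/- samples of the ChIP-seq and methylation assays carry a different name. The line behind the second RNA-seq library is therefore not certain, and its label does not describe the Eed mutation. Eed itself had 63.0 FPKM in WT and 70.9 FPKM in the other library, so its RNA was not lower there. For this reason the second library is named by its label only. Whether EED protein was present cannot be read from RNA, and the study checked the knockout through H3K27me3, by western blot and ChIP-seq, which were not analysed here. The design holds 1 library per genotype, so that replicate error is unknown for every difference below, and p-values were not calculated.

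Replication-dependent histone genes supply the protein that packages newly copied DNA, and their RNA is made mainly in S phase. H2A, H2B, H3 and H4 form the nucleosome core, and H1 binds the linker DNA between nucleosomes. Most of these mRNAs are not spliced and do not end in a poly(A) tail. They end just after a short stem-loop, which is bound by the stem-loop binding protein SLBP, and the transcript is cut there with the help of the U7 small nuclear ribonucleoprotein. Because the libraries were made from total RNA depleted of ribosomal RNA, and not from poly(A)-selected RNA, such transcripts were retained. The RNA level in bulk cells depends on the share of cells in S phase as well as on the RNA per cell, and these cannot be told apart here.

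The stem-loops are shown first, since they define this type of mRNA and separate H4 from the other histones. A stem-loop of 16 bases, with a stem of 6 base pairs and a loop of 4 bases, was searched for in mm9 genes. The window was the 100 bases after the 3′-most annotated stop codon of each gene. The stem had to start with GG, all 6 pairs had to match, and the loop had to start with TT. This pattern was present in 58 of the 65 histone genes with an annotated stop codon (89.2%). It was present in 8 of 21713 other protein-coding genes (0.0368%), one of which was the histone variant gene H2afx. In the following lines the stem-loop is in capitals, read 5′ to 3′ on the coding strand, with flanking bases in lower case.
Hist1h2aa, chr13:24026755-24026780, + strand: aaaaaGGCTCTTTTCAGAGCCacctt
Hist1h2ba, chr13:24025594-24025619, - strand: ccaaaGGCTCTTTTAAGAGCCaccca
Hist1h1d, chr13:23647651-23647676, + strand: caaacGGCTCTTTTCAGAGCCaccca
Hist1h3e, chr13:23653767-23653792, - strand: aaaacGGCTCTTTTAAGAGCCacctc
Hist2h2ac, chr3:96024336-96024361, - strand: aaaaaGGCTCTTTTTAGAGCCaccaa
Hist1h4c, chr13:23789953-23789978, - strand: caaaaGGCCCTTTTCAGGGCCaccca
Hist1h4d, chr13:23673814-23673839, + strand: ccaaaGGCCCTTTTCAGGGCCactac
Hist1h4b, chr13:23849230-23849255, + strand: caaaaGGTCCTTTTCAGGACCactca
Hist2h4, chr3:96066857-96066882, - strand: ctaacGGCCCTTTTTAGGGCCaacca
Hist4h4, chr6:136752514-136752539, - strand: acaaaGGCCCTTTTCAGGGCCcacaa

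The form shown for Hist1h2aa was the most common and was found in 36 genes of H1, H2A, H2B and H3. The form of Hist1h2ba was found in 9 genes, Hist1h1t among them, and that of Hist2h2ac in 1 gene. The 12 stem-loops of H4 genes had other stems, which were not found in any gene of the other histones. The form of Hist1h4c and Hist1h4d was shared by 8 H4 genes, and the forms of Hist1h4b and Hist2h4 by 2 genes each. Hist1h4c, which was past 2-fold lower, and Hist4h4, which was past 2-fold higher after quantile normalization (described below), thus carried the same stem-loop. No such stem-loop was found in this window for Hist1h2an, Hist1h2bp, Hist1h2br, Hist1h3g, Hist1h4a, Hist2h2bb and Hist2h2be. Since other positions were not searched, this does not show that their mRNAs lack a stem-loop.

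The histone genes were among the most abundant RNAs of both libraries. FPKM, fragments scaled to transcript length and to all mapped fragments, allows levels to be compared between genes only as far as the annotated lengths hold. In the gene models used here these lengths are unequal, for example 3821 bases for Hist1h1d and 747 for Hist1h1a. Levels, and ranks such as most abundant, are by FPKM throughout. At least 100 FPKM was reached in both libraries by 50 of the 67 genes, whereas 9 genes stayed under 10 FPKM in both. Hist2h3c1 and Hist2h3c2 were listed at 0 in both libraries. The median histone gene stood at the 99.4th percentile of all symbols in WT. Hist1h4d, a gene of H4, had the highest level, with 4005 FPKM in WT and 3491 FPKM in the library labelled Eed-/-. It was followed by the H2B gene Hist2h2bb, with 2589 and 2515 FPKM.

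Low values of these genes need care, because the genes resemble each other. In 22 of the 67 genes the sequence had at least 1 near-identical copy elsewhere in the genome, and 8 symbols were listed more than once. A copy had to match most of the annotated sequence, so a gene without one can still share a shorter part with other members. How fragments that map to several copies were divided is not given in the sources used here. Hist2h2aa2 and Hist1h2ap were listed close to 0 in both libraries. The depth was about 7230000 fragments in WT, against 6450000 in the library labelled Eed-/-, as recovered from the steps between low FPKM values. At this depth counting error was small for most members, and it says nothing of the spread between cultures.

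To compare the libraries, FPKM values were quantile-normalized, and a change below is the difference in log2(FPKM + 1), the library labelled Eed-/- minus WT. A value of 1 is called 2-fold here, which holds for genes well above 1 FPKM. At lower levels the added 1 makes the change smaller than the fold. Hist2h2aa1, at 1.08 and 2.87 FPKM, was 2.65-fold as deposited but had a change of 0.95. Genes of low FPKM thus pass less easily, and they are part of the background of all genes. Of the 67 members, 62 had a mean normalized FPKM of at least 0.1 and were used. Of these, 5 (8.06%) were up by 2-fold or more in the library labelled Eed-/-, namely Hist1h2aa, Hist1h2ba, Hist1h4m, Hist3h2bb-ps and Hist4h4. Among all 14835 genes at that level, 3.80% were higher. Hist1h2ao and Hist1h4c were at least 2-fold lower, which is 3.23% of the members, beside 3.98% of all genes. The count depended on the scaling, since 3 members were higher and 3 lower as deposited, and 3 were higher and 2 lower with median-ratio scaling. Since histone genes are so abundant, genes with a mean of at least 50 FPKM are a closer background, and of these 3.57% were higher and 4.22% lower. Of the 55 histone genes at this level, 4 were higher and 1 was lower, but Hist1h2aa and Hist1h2ba reached the mean of 50 FPKM only through the library labelled Eed-/-, so this count is no support for a difference. Hist1h4m likewise entered the count of 5 only through that library. Neither share was tested against its background, and 5 or fewer genes do not separate the members from other genes.

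Most members changed little. In 45 of the 62 genes the change was within 0.5 in either direction. The median change was 0.08, against 0.01 over all genes and 0.00 over genes with a mean of at least 50 FPKM. With FPKM as deposited, the median of the members was -0.16, that of all genes -0.09 and that of the abundant genes -0.24, so the sign of the members' median depended on the scaling. Summed over the 67 members, the FPKM came to 35178 in WT, compared with 30889 in the library labelled Eed-/-. After quantile normalization the log2 ratio of the sums was 0.04, compared with -0.19 as deposited and -0.03 with median-ratio scaling. The direction of the sum thus depended on the scaling.

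**Figure D1:**
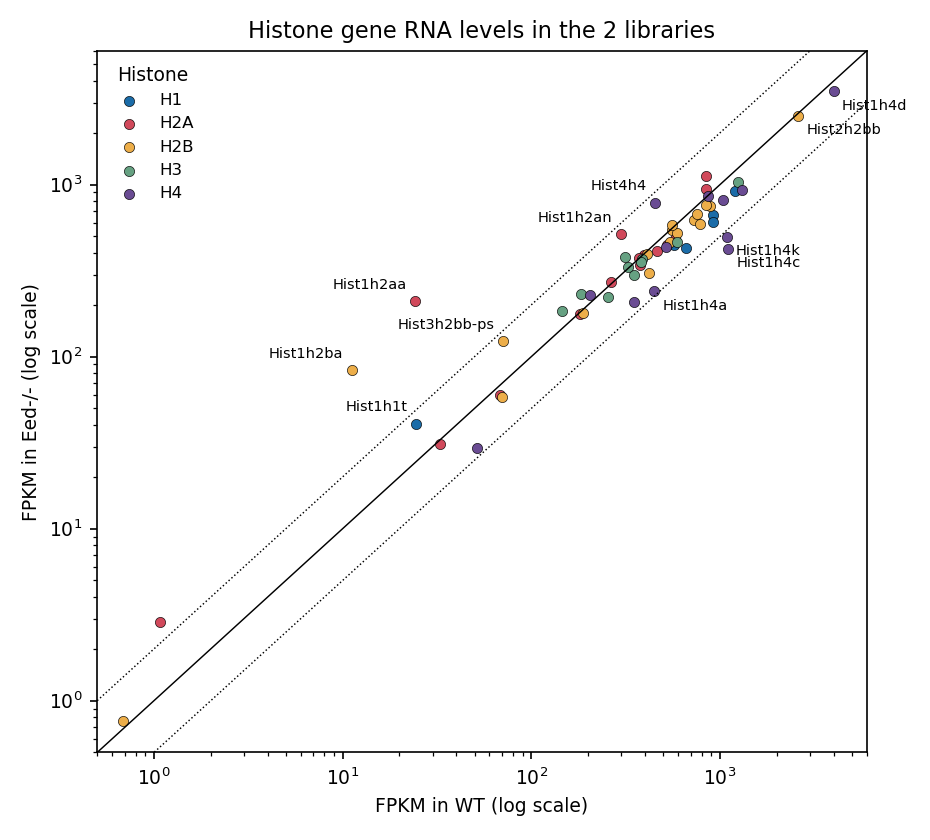
Deposited FPKM of the histone genes in WT (x axis, log scale) against the library labelled Eed-/- (y axis, log scale), each point 1 gene, coloured by histone. The solid line marks equal values and the dotted lines 2-fold, and genes at or near 0 in either library are not drawn. Most genes lie above 100 FPKM close to the solid line, while Hist1h2aa and Hist1h2ba lie far above it.

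The testis genes of H2A and H2B stood apart. Hist1h2aa (chr13:24026331-24026720 in mm9, + strand) and Hist1h2ba (chr13:24025637-24026025, - strand) encode the H2A and H2B proteins known as TH2A and TH2B, which are abundant in male germ cells and in oocytes. Hist1h2aa had 24.3 FPKM in WT and 210 FPKM in the library labelled Eed-/-, which is 8.66-fold as deposited. Its change after normalization was 3.28, with a counting interval (95%, exact, for the fold without a pseudocount) of 2.83 to 3.86 from about 36.9 and 285 fragments. Hist1h2ba had 11.2 and 83.5 FPKM, which is 7.45-fold, and a change of 2.99 (counting interval 2.36 to 3.93). Both genes were past 2-fold, and past 3-fold, with each of the 3 scalings, and neither had a near-identical copy in the genome. Apart from Hist1h4m, described below with H4, no other member had a change above 2. In the library labelled Eed-/-, the level of Hist1h2aa was close to those of Hist1h4i and Hist2h3b, at 209 and 230 FPKM.

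The third testis gene, Hist1h1t, encodes the H1 of spermatocytes. It had 24.4 FPKM in WT and 40.6 FPKM in the library labelled Eed-/-. Its change of 0.91 (counting interval 0.60 to 1.26) did not reach 2-fold, and it was the only H1 gene above 0. The 3 testis genes made up 0.17% of the histone FPKM in WT and 1.08% in the second library, a minor part in both.

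Hist1h2aa and Hist1h2ba are divergent neighbours, with 305 bases between their annotated ends in mm9. The 250 bases before the RefSeq start of Hist1h2aa (GRCm38.p6, chr13:23934187-23934436, + strand) cover most of the interval between the genes and are shown because both genes were higher. Capitals mark matches on either strand to the TATA box (letters TATAAA), to the box named CCAAT and to the octamer (letters ATTTGCAT).
Hist1h2aa promoter: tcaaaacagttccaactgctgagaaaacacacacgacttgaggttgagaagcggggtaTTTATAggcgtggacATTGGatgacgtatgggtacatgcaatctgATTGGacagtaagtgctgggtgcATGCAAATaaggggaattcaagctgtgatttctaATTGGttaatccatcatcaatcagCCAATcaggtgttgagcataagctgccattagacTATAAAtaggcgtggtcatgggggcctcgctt

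This sequence holds a TATA box 32 bases before the start of Hist1h2aa and a second one 192 bases before it, on the strand of Hist1h2ba. Between them lie 4 CCAAT boxes and 1 octamer. The same elements were common in other histone promoters. In windows of 250 bases before to 50 bases after the start, matched for 60 members in RefSeq, TATAAA was found in 58.3% of histone promoters and in 14.1% of 26965 other promoters. CCAAT was found in 85% and 37.8%, and ATTTGCAT in 21.7% and 1.71%. The motifs differed between histones. CCAAT was present in 100% of the H1, H2A, H2B and H3 promoters but in 25% of the 12 H4 promoters. The octamer was present in 41.2% of H2A and 40% of H2B promoters and in none of H1, H3 or H4. In CpG content, the windows of Hist1h2aa and Hist1h2ba had 8 and 7 CpG sites, compared with a median of 11 in the 57 promoters of the members outside the testis genes (3 to 41) and 7 in other promoters. A match shows only that these letters are present and is not evidence of binding.

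H1 RNA was a little lower in the library labelled Eed-/-. The 5 somatic genes, Hist1h1a to Hist1h1e, had changes between -0.42 and -0.14, and all 5 were below 0 with each of the 3 scalings. Over all genes, 50.9% were above 0 after quantile normalization, 42.5% as deposited and 51.6% with median-ratio scaling. No somatic H1 gene passed 2-fold, beside 3.80% of all genes higher and 3.98% lower. Hist1h1a had the highest level by FPKM, 1204 and 922. Hist1h1b followed with 922 and 665 FPKM, and Hist1h1d with 919 and 606 FPKM. Hist1h1d has a longer gene model, and its estimated fragments in WT, about 24188, exceeded the 4937 of Hist1h1a. Hist1h1c had the largest drop, from 658 to 429 FPKM, a change of -0.42 (counting interval -0.48 to -0.37). H1 made up 12.2% of the histone FPKM in WT and 10.1% in the second library, and relative to the sum of the core histones it was 13.9% and 11.2%.

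For H2A the direction depended on the scaling. The median change was 0.20, with 14 of 16 genes above 0 (87.5%, beside 50.9% of all genes). As deposited it was -0.03, with 7 of 16 above 0 (43.8%, beside 42.5% of all genes), and with median-ratio scaling 11 of 16 were above 0. Their share of the histone FPKM was 14.9% in WT, compared with 18.7% in the library labelled Eed-/-. Hist1h2ak, the H2A gene with the highest FPKM, had 844 and 1124 FPKM and a change of 0.64. Hist3h2a, the only H2A gene of cluster 3, had 838 and 948 FPKM and a change of 0.40. Its gene model is longer, and its estimated fragments in WT, about 10961, exceeded the 2032 of Hist1h2ak. Hist2h2ac had 576 and 485 FPKM and a change of -0.04. Hist1h2an had 299 and 516 FPKM and lay just under the 2-fold line at 1.00 (counting interval 0.83 to 1.17), and its sequence has 12 near-identical copies. Hist1h2ao was listed at 1.09 FPKM in WT and at 0 in the library labelled Eed-/-. It was counted as lower, but its symbol was listed more than once and it has a near-identical copy in Hist1h2ap. Summed, the pair was listed at 1.1 FPKM in WT, compared with 0 for the library labelled Eed-/-, a change of -1.06.

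H2B genes changed direction with the scaling as well. Of 17 genes, 13 had changes above 0 (76.5%, beside 50.9% of all genes), with a median of 0.12. As deposited 4 were above 0 (23.5%, beside 42.5% of all genes) and the median was -0.16. Hist2h2bb alone made up 25.9% of the H2B sum in WT and 27.4% in the second library, at 2589 and 2515 FPKM (change 0.26). It differs from most members in its gene model, which spans chr3:96073644-96082924. No stem-loop was found after its 3′-most annotated stop codon, and the rest of the gene was not searched. Hist1h2bb had 889 and 750 FPKM and Hist1h2bc 845 and 757 FPKM, with changes of 0.07 and 0.14. The lowest changes were those of Hist1h2bh, -0.22 at 418 and 307 FPKM, and Hist1h2bk, -0.15 at 786 and 591 FPKM. Outside the testis gene, the only H2B member past 2-fold was the pseudogene Hist3h2bb-ps (chr11:58767550-58768014), with 70.5 and 123 FPKM and a change of 1.04 (counting interval 0.74 to 1.36). With FPKM as deposited and with median-ratio scaling it did not pass, at 0.79 and 0.95.

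The changes of H3 genes are given by protein. The coding spans of the annotation, read without splicing, gave 3 different proteins, but 1 of them came only from Hist2h3c1. That gene was listed at 0 in both libraries and its gene model overlaps Hist2h2aa1, so it was not taken as a separate protein. The 6 genes of the most common protein (Hist1h3b to Hist1h3f and Hist2h3b), known as H3.2, had a median of -0.01 and ranged from -0.14 to 0.56. The 4 genes of H3.1 (Hist1h3a, Hist1h3g, Hist1h3h and Hist1h3i) were all above 0, beside 50.9% of all genes, with a median of 0.37. As deposited, Hist1h3a turned negative (-0.07). Hist1h3e was the most abundant, with 1252 and 1031 FPKM and a change of -0.03. Hist1h3c had 589 and 464 FPKM and the lowest change, -0.14. Hist1h3a, with 388 and 370 FPKM, came next. Hist1h3h had 145 and 183 FPKM and the highest change, 0.59, followed by Hist2h3b with 183 and 230 FPKM and 0.56. Near-identical copies numbered 9 for Hist1h3h, 6 each for Hist2h3b and Hist1h3i, and 1 for Hist1h3e. Hist1h3a and Hist1h3g had no such copy over most of their annotated sequence, and shorter matches were not counted. No H3 gene passed 2-fold, beside 3.80% of all genes higher and 3.98% lower. The changes of H3.1 and H3.2 genes overlapped.

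**Figure D2:**
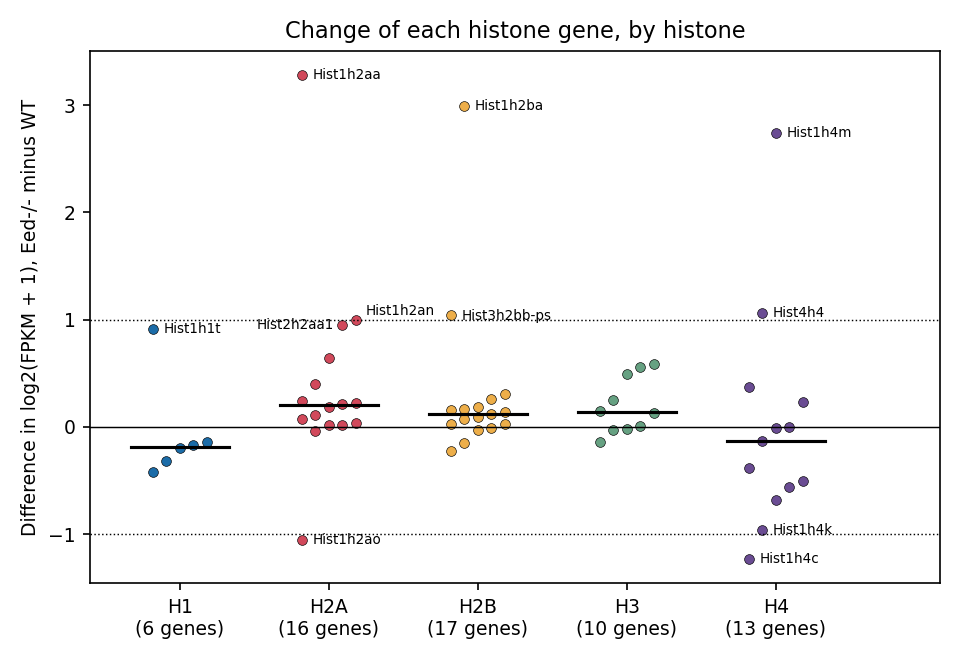
Change of each of the 62 histone genes (difference in log2(FPKM + 1) after quantile normalization, y axis) by histone (x axis), each point 1 gene. Black bars are medians and dotted lines mark 2-fold. The 5 somatic H1 genes lie below 0, and H4 genes spread from -1.23 to 2.74.

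H4 genes had the widest range of changes of the core histones outside the testis genes, from -1.23 to 2.74, although the upper end was Hist1h4m, a gene listed close to 0 in WT. All 13 H4 genes encode 1 protein, through 12 different coding sequences, so their RNAs differ without a difference in product. The median change was -0.13, with 8 genes below 0 and 4 above (30.8%, beside 50.9% of all genes). Hist1h4c (chr13:23789929-23790323, - strand) fell from 1108 to 425 FPKM, a change of -1.23 (counting interval -1.37 to -1.10). Its annotated sequence of 395 bases has no near-identical copy in the genome, but matches over a smaller part of it were not counted. Whether its fragments also map to other H4 genes was therefore not tested. Hist1h4c passed 2-fold with each of the 3 scalings. Hist1h4k had 1095 and 499 FPKM and a change of -0.96, which passed 2-fold only as deposited (-1.13), and its sequence has 10 near-identical copies. Hist1h4a, with 446 and 240 FPKM, and Hist1h4i, with 348 and 209 FPKM, had changes of -0.68 and -0.50. Hist1h4d, the most abundant, had a change of 0.00, and Hist1h4f and Hist1h4b, next by the mean of both libraries, had -0.38 at 1311 and 932 FPKM and -0.13 at 1041 and 814 FPKM.

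Hist4h4 (chr6:136752589-136752900, - strand), the only H4 gene outside the large clusters, went the other way. It had 455 FPKM in WT and 785 FPKM in the library labelled Eed-/-, and its change was 1.06 (counting interval 0.88 to 1.24). With FPKM as deposited and with median-ratio scaling the change was 0.79 and 0.95, short of 2-fold but still above 0. Hist1h4m was listed close to 0 in WT and at 5.45 FPKM, about 7.81 fragments, in the library labelled Eed-/-. Its near-identical copy Hist1h4n had 51.5 and 29.6 FPKM. Summed, Hist1h4m and Hist1h4n had 51.5 FPKM in WT and 35.1 FPKM in the library labelled Eed-/-, a change of -0.33, so that the sum of the pair did not pass 2-fold.

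The balance between histones shifted with these genes. H4 accounted for 32.5% of the histone FPKM in WT and 29% in the second library, H3 11.9% and 12.5%, and H2B 28.4% and 29.7%. The H4 sum over the H3 sum was 2.74 in WT, compared with 2.32 in the library labelled Eed-/-, and that of H2B to H2A was 1.9 and 1.59. These shares and ratios do not depend on a scaling factor between the libraries, but they do depend on the transcript lengths behind the FPKM. With 1 library each it is not known whether the shifts exceed the spread between cultures.

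**Figure D3:**
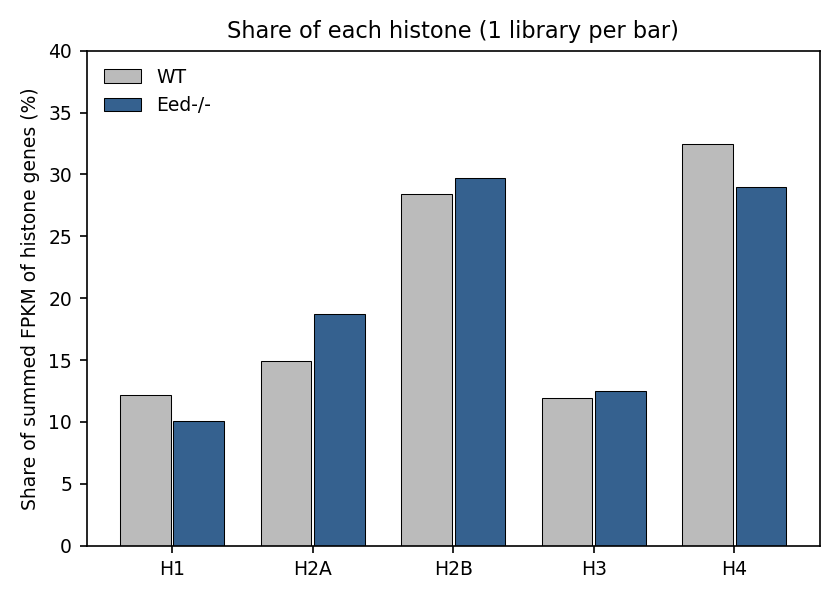
Share of each histone in the summed deposited FPKM of the 67 genes (y axis, percent), with WT in grey and the library labelled Eed-/- in blue, 1 library per bar and therefore no error bars. The share of H2A is higher and the shares of H1 and H4 are lower in the library labelled Eed-/-.

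Position along the chromosomes was examined next. Cluster 1 had a median change of 0.03 over 51 genes, cluster 2 of 0.11 over 7 genes and cluster 3 of 0.40 over 3 genes. With FPKM as deposited these became -0.19, -0.04 and 0.18. Other genes of chromosomes 13, 3 and 11 had medians of 0.13, 0.06 and 0.04. Cluster 1 is split into blocks along chromosome 13 of mm9. Its first block (chr13:21807632-21929399, 17 genes) had a median of 0.03, the next (chr13:22126982-22135545, 5 genes) 0.12 and the large block (chr13:23622919-23856283, 29 genes) 0.02. The testis pair, farthest along the chromosome, had 3.13. Genes next to each other could differ. Hist1h4c lies between Hist1h1t, at 0.91, and Hist1h1c, at -0.42.

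**Figure D4:**
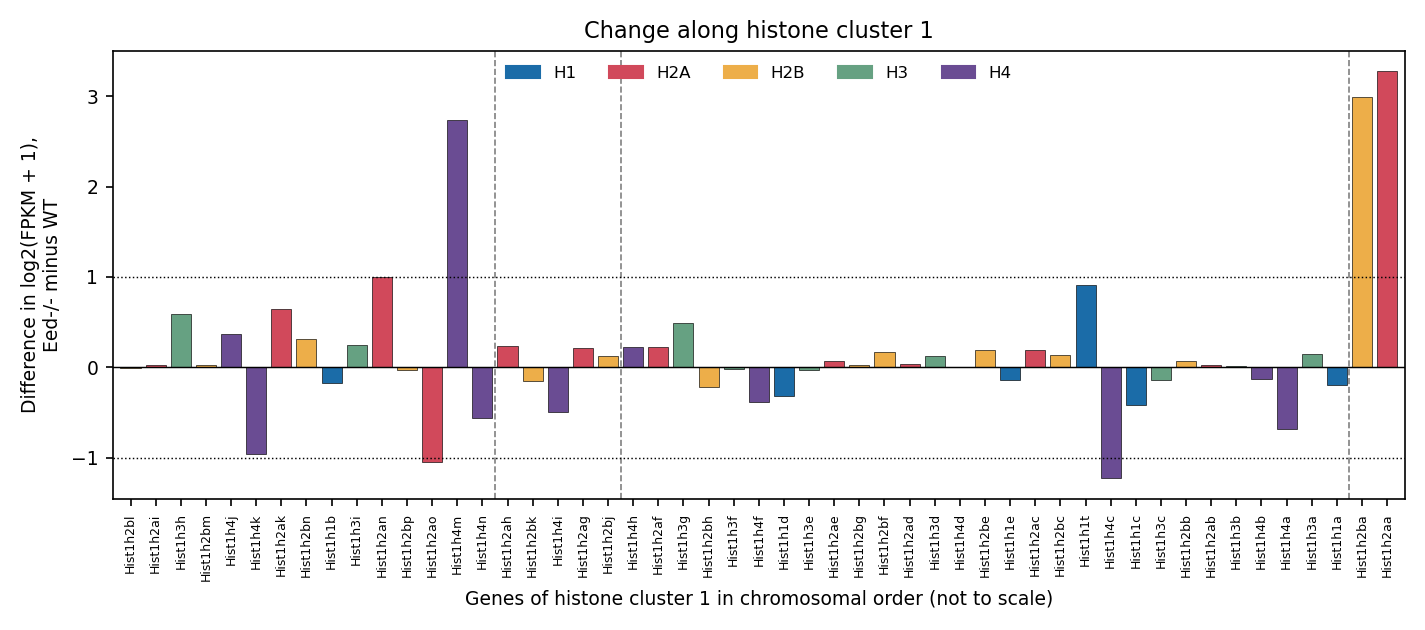
Change of each used gene of cluster 1 (difference in log2(FPKM + 1) after quantile normalization, y axis) in chromosomal order (x axis, not to scale), coloured by histone. Dashed lines separate the blocks and dotted lines mark 2-fold. The testis pair at the right end, which makes up its own block, stands above all other genes drawn, and low and high values are otherwise scattered along the cluster.

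Many H2A and H2B genes share 1 promoter region, since they are transcribed away from each other. There were 11 such pairs with under 1000 bases between them, and the gaps were between 278 and 334 bases. In the testis pair both genes were higher, by 2.99 and 3.28. In most other pairs both changes were small. Hist1h2ac and Hist1h2bc, for example, had 0.19 and 0.14, and Hist1h2bl and Hist1h2ai had -0.01 and 0.02. Hist1h2ak and Hist1h2bn had 0.64 and 0.31. Partners were not always alike. Hist1h2an had a change of 1.00, whereas its partner Hist1h2bp, at 69.6 and 57.9 FPKM, had -0.03. Hist2h2ac had 576 FPKM in WT, whereas its partner Hist2h2be had 0.681 FPKM.

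As the study was about DMVs, members were divided by whether the study lists them as genes in mESC DMVs. The study treated EED-bound DMVs apart from other DMVs, but the list was used here without that division. A listed gene is therefore not shown to be bound by Polycomb. The listing applied to 41 of the 67 genes. Of the 38 such genes that were used, 0 were at least 2-fold higher and 0 at least 2-fold lower, and of the 24 others 5 were higher and 2 lower. Over all genes used, 4.22% of the 1587 mESC DMV genes were higher and 4.79% lower, and of the 13248 other genes 3.75% were higher and 3.88% lower. The count of 0 among the 38 depends on the settings, since the listed gene Hist1h2an lay at 1.00, and the listed gene Hist2h2aa1 passed at a pseudocount of 0.1. The medians were 0.08 and 0.09. No p-value was computed for this split, since each count comes from a single pair of libraries. The testis pair and Hist1h4c were among the genes outside the list. So were Hist1h4m and Hist1h2ao, each of which was used only through 1 library.

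The other genes of the histone pathway were then examined. Among 13 genes of histone variants, which are made outside S phase as well and mostly carry poly(A) tails, 12 were used, 0 were higher and 3 were lower by 2-fold, beside 3.98% of all genes lower. The first was H2afy, which encodes macroH2A1, with 89.2 FPKM in WT and 24.0 FPKM in the second library (change -1.65). H2afy2, for macroH2A2, had 22.6 and 7.67 FPKM and a change of -1.29. H1foo, the oocyte H1, was listed at 2.36 FPKM in WT and at 0 in the other library, so that it was used only through its value in WT. H2afx, the variant marked at DNA breaks, is also the one with a stem-loop, and its level was 251 and 221 FPKM with a change of 0.04. The genes of H3.3, H3f3a and H3f3b, had changes of -0.37 and 0.34. The median of the variants was -0.04.

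Genes that transcribe and process histone mRNA did not pass 2-fold in either direction (0 of 16), and their median was -0.20. Among all genes 3.80% were higher and 3.98% lower, which is the background for each list here. Slbp, the stem-loop binding protein, had 50.4 and 38.0 FPKM and a change of -0.19. Srrt, which acts with the cap-binding complex, had 115 and 80.7 FPKM (-0.26), Ncbp1, a subunit of the cap-binding complex, 54.0 and 40.2 FPKM (-0.20), and Cpsf3, the nuclease that cuts the pre-mRNA, 53.1 and 32.6 FPKM (-0.47). Of 25 genes of DNA replication, 0 passed 2-fold, and their median was -0.17. The helicase subunits Mcm6, Mcm3, Mcm5 and Mcm2 had changes of -0.61, -0.73, -0.47 and -0.51. Of 15 histone chaperones, 0 passed, with a median of -0.25. The most abundant were Nasp, which binds H3 and H4, at 188 and 201 FPKM (0.32), and the FACT subunits Ssrp1 (-0.25) and Supt16 (-0.20). Of 10 mitotic genes, 0 passed, with a median of 0.06. Beside the median of 0.01 over all genes, the replication, processing and chaperone lists had lower medians, with no test of the difference, and their part in the values of the histone genes was not tested.

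**Figure D5:**
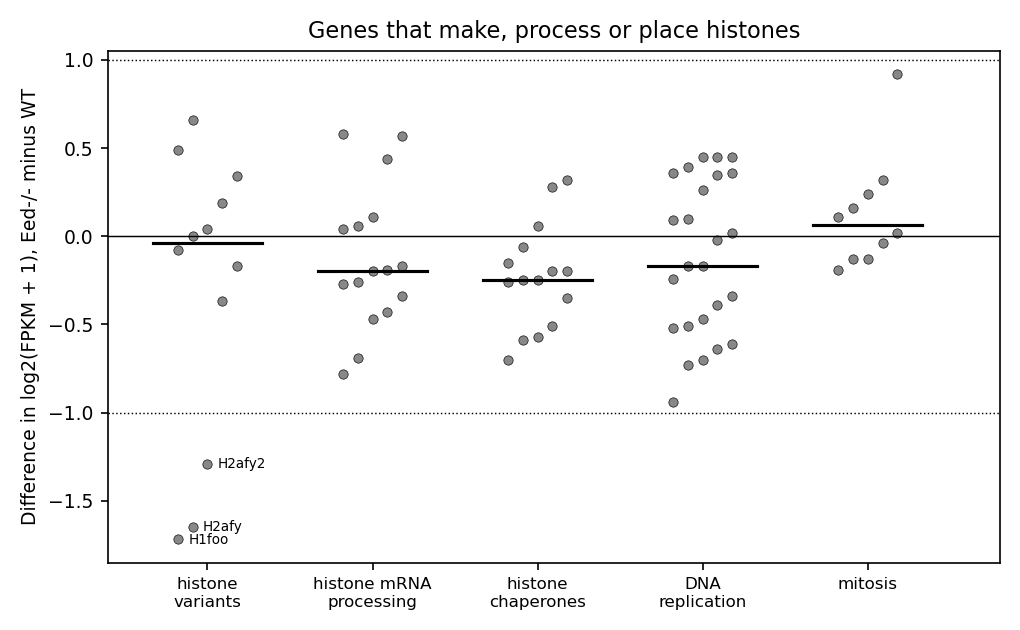
Change of genes in 5 lists of the histone pathway and the cell cycle (difference in log2(FPKM + 1) after quantile normalization, y axis), each point 1 gene, with medians as black bars and 2-fold as dotted lines. Apart from H2afy, H2afy2 and H1foo, the genes lie within 2-fold.

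Cell identity was checked with markers. All 9 mESC markers were expressed, with Pou5f1 at 393 and 373 FPKM, Dppa5a at 250 and 372 FPKM and Sox2 at 196 and 157 FPKM. Of the 9, 1 passed 2-fold, Zfp42, from 131 to 272 FPKM, beside 3.80% of all genes higher. Klf4, Nanog and Dppa5a, without passing, had changes of 0.99, 0.86 and 0.80. The remaining markers, Pou5f1, Esrrb, Tdgf1, Sox2 and Utf1, had 0.14, 0.13, -0.00, -0.08 and -0.38. The part of such a difference between the cultures in the values of the histone genes was not tested. Of 9 fibroblast markers, 3 had a mean of at least 0.1 FPKM. Thy1 passed 2-fold, from 0.976 to 6.97 FPKM, Twist1 had 1.24 and 2.88 FPKM (0.85) and Col1a1 had 0.46 and 0.137 FPKM (-0.36). The part of rare cells of another type in the values of the testis genes was not tested.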

How the data were processed

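RNA-seq of WT and Eed-/- mESCs (1 library per genotype) was used. Per the labels, total RNA was depleted of ribosomal RNA, fragmented and made into strand-specific libraries with dUTP, using oligo dT together with random primers. The authors aligned reads to mm9 using TopHat and ran Cufflinks, and what they deposited is 1 FPKM value per entry, with no counts. The submitters' processing notes name TopHat2 2.0.11 and Cufflinks 2.2.1. The paper's methods name a different TopHat version, so the version used is not certain. The annotation, the Cufflinks options and the treatment of multiply mapped reads are not given in the sources used here.

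Repeated symbols (8 of the members) were added up and quantile normalization was applied, as in the study. A gene was used where its normalized FPKM averaged 0.1 or more over both libraries, and 1 was added before log2. The threshold was 2-fold. Fragments were estimated from FPKM, annotated length minus 180 bases and the recovered depth, which rests on 745 low values in WT (80.3% within 0.1 of a whole number) and 778 in the library labelled Eed-/- (81.6%). Intervals (95%, exact) cover counting error only. Gene models were GENCODE vM1 on NCBIM37 (mm9), and 67 of 67 members matched. A copy was an alignment by minimap2 2.31 over at least 80% of the sequence at 95% identity. Promoters came from RefSeq (GRCm38.p6) and the study's own list gave the mESC DMV genes, by symbol.

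Members and lists were chosen with earlier results of these data known. The genes named with values were, per histone, the 3 most abundant, the 2 with the highest and the 2 with the lowest changes, all past 2-fold, the testis genes and genes of named pairs, and of other lists those past 2-fold and at most 4 of the most abundant. Hist1h4a, Hist1h4i, Hist2h2be, the markers Klf4, Nanog, Esrrb, Tdgf1, Utf1, Twist1 and Col1a1, and the contrasting neighbours were added after their values were seen. The computations were tested on simulated data. Scripts ran under Python 3.11.15 with scipy 1.17.1, pandas 2.3.3, numpy 2.4.6, pysam 0.24.0 and matplotlib 3.10.9.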

Additional observations from a re-analysis of the deposited data

How the results depend on the processing

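With 1 library per genotype, a difference between cultures cannot be told apart from one between genotypes, and depth limits the members under 10 FPKM. No paired analysis was possible because each genotype has 1 RNA-seq library. The count of members at least 2-fold higher, 5, became 3 with FPKM as deposited, with median-ratio scaling, without the testis genes and at a 3-fold threshold. The count of lower members, 2, became 1 at a mean of at least 1 FPKM, without repeated symbols, without members that have a near-identical copy, and at a mean of at least 10 FPKM (chosen after seeing the data, like the background of genes with a mean of at least 50 FPKM), and 0 at 3-fold. The median change of 0.08 became -0.16 as deposited. The log2 ratio of the sums, 0.04, became -0.19 as deposited, -0.03 with median-ratio scaling, 0.03 without the testis genes and 0.06 without members that have a copy. The cause of these shifts was not tested, beyond the smaller number of genes used. The higher count was 6 with pseudocounts of 0.1 and 0.01, and the lower count 3 as deposited. Under the 2 other scalings and 2 other pseudocounts, the 7 members past 2-fold kept their sign in 28 of 28 values, but Hist1h4m summed with its copy Hist1h4n was at -0.33. Hist1h2ao, listed at 0 in 1 library, moved to -3.55 and -6.76 with the smaller pseudocounts, below Hist1h4c at -1.24.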
